A study of Homo sapiens with 56 samples.

Results

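The 10 genes described here are the cyclin D genes CCND1, CCND2 and CCND3, the kinases CDK4 and CDK6, the inhibitor gene CDKN1B, the retinoblastoma gene RB1, the related SOXC transcription factor genes SOX11 and SOX4, and MYB. They were chosen by name, as the cyclin D to RB1 axis and hallmark genes of mantle cell lymphoma together with SOX4 and MYB, and they are 10 of the 21595 named genes in the deposited table. All 10 were found once by symbol. RNA was sequenced in 56 libraries of mantle cell lymphoma cell line cultures: 15 each of MINO-P and JEKO-1, and 13 each of MINO-VR and Z138. What P and VR stand for is not given in the sources used here.

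The cells were untreated (CON, 5 libraries) or carried 1 of 11 treatment labels. Single agents were BTZ (6 libraries), IBR (11), CLF (6), YM155 (4) and S63845 (6), and combinations were BTZ_CLF (4), BTZ_YM155 (2), BTZ_S63845 (1), IBR_CLF (8), IBR_YM155 (2) and IBR_S63845 (1). YM155 is a small molecule developed to lower survivin (BIRC5) expression and S63845 is an inhibitor of MCL-1. The series' design names a proteasome inhibitor and a BTK inhibitor as partners; the codes BTZ, IBR and CLF are not spelled out, and doses and times are not given in the sources used here. By line and treatment these are 37 groups: 22 with a single library, 11 with 2 libraries and 4 with 3. Nothing in the labels says that libraries came from separate cultures, so p-values measure the spread between these libraries, which may be technical.

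Cyclin D proteins bind CDK4 or CDK6 in G1, and the active kinase phosphorylates the RB1 protein, which then releases E2F transcription factors that switch on genes for DNA replication. The protein p27, encoded by CDKN1B, binds cyclin and kinase complexes and restrains cyclin E with CDK2. Mantle cell lymphoma typically carries a translocation that places CCND1 next to the immunoglobulin heavy chain locus, so that a cyclin that mature B cells hardly use is produced at a high level; SOX11, a gene that normal B cells do not express, marks the conventional form of the disease. SOX4 belongs to the same SOXC subfamily and acts in early B cell development, and MYB encodes a transcription factor of blood progenitors and cycling lymphoid cells.

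Levels are given as nuclear CPM, which is the reads of a gene per M reads (CPM, counts per M) once the 15 mitochondrial genes were left out. That step was taken because mitochondrial genes held between 1.91% and 80.5% of a library. Recovered depth was 5.52 to 21.6 M reads, with a median of 16.0 M, and 3 reads, used as the floor of detection, corresponded to 0.145 to 2.18 nuclear CPM; floors cover counting error only. In 53 of 56 libraries the library with the highest correlation over all genes was of the same line, and the 3 exceptions paired MINO-P with MINO-VR. The library labelled JEKO-1 BTZ replicate 3 stood apart: its median correlation with the other JEKO-1 libraries was 0.756, against at least 0.902 for every other library with its own line, so results that rest on it are also given without it. The T cell markers CD3D, CD3E, CD2 and TRAC summed to a median of 0.485 to 5.71 nuclear CPM by line. CD5, a defining marker of mantle cell lymphoma, had a median of 0 in Z138.

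On GRCh38, the build named in the submitters' processing notes, the table places CCND1 (ENSG00000110092) on chromosome 11 from 69641156 to 69654475 and CCND2 (ENSG00000118971) on chromosome 12 from 4269771 to 4305354, both on the plus strand. CCND3 (ENSG00000112576) lies on chromosome 6 from 41934934 to 42050358, CDK4 (ENSG00000135446) on chromosome 12 from 57747727 to 57756014 and CDK6 (ENSG00000105810) on chromosome 7 from 92604921 to 92836574, all on the minus strand. CDKN1B (ENSG00000111276) lies on chromosome 12 from 12685498 to 12722370, RB1 (ENSG00000139687) on chromosome 13 from 48303744 to 48599437 and SOX11 (ENSG00000176887) on chromosome 2 from 5692384 to 5701386, all on the plus strand. SOX4 (ENSG00000124766) and MYB (ENSG00000118513) lie on the plus strand of chromosome 6, from 21593751 to 21598620 and from 135181308 to 135219174. Each value counts reads over a gene as a whole, so exons, introns and UTRs cannot be separated.

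Sequences just upstream of the start are shown for the 3 members with a RefSeq promoter entry (GRCh38.p14) that begins within 1 base of the gene start in the table: CDK6 and SOX4, which had far lower levels in some lines than in others, and MYB, which had the largest fitted fall of the members under BTZ. Each is 250 bases, 5′ to 3′ on the gene's strand, at chr7:92836574-92836823 (CDK6, minus strand), chr6:21593501-21593750 (SOX4, plus strand) and chr6:135181058-135181307 (MYB, plus strand). Capitals mark the GC box GGGCGG on either strand.
CDK6: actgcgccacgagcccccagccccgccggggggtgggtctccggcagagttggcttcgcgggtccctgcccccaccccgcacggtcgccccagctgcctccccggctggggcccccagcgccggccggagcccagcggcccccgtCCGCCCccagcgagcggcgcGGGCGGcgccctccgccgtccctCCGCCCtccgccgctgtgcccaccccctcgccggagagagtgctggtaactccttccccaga
SOX4: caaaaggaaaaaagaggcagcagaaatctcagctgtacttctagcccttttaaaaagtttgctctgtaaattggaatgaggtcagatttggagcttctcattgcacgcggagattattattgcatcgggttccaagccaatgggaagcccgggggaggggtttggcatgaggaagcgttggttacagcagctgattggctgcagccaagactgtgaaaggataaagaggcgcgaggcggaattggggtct
MYB: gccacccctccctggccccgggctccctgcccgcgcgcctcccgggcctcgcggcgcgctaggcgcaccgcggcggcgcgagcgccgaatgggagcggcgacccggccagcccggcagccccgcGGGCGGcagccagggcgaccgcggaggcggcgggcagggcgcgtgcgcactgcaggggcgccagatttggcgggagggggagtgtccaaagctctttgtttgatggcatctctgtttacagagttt
The CDK6 window held 3 GC boxes and the MYB window 1, while SOX4 held none. Of 35116 RefSeq windows of this length, 42.6% held at least 1. The CRE core TGACG (21.2% of windows), the E-box CACGTG (6.34%), the TATA box TATAAA (10.7%) and the E2F forms TTTGGCGC (0.55%) and TTTCGCGC (0.439%) were in none of the 3, searched on both strands. The E2F search took these exact letters only. The MYB window holds TTTGGCGG, which differs from TTTGGCGC in its last letter and was not counted. All of these are matches of letters in 1 window each, and no binding was measured.

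CCND1 was the dominant D cyclin in every line. Its median was 1063 nuclear CPM in MINO-P (lowest 207, highest 3028, n = 15), 743 in MINO-VR (296 to 3116, n = 13), 841 in JEKO-1 (457 to 2239, n = 15) and 1890 in Z138 (277 to 3252, n = 13). The 4 ranges overlapped almost wholly, and no comparison between lines called CCND1. Per kilobase of merged exons, CCND1 made up a median of 95.2% of the summed D cyclin level in MINO-P, 94.3% in MINO-VR, 92.5% in JEKO-1 and 98.2% in Z138. Its lowest share was 72.4%, in the MINO-P library treated with BTZ_YM155, where CCND3 took 25.3%.

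The other D cyclins differed between lines. CCND2, the D cyclin induced by antigen receptor signals in normal B cells, had a median of 21.2 nuclear CPM in MINO-P (7.65 to 51.4), 11.3 in MINO-VR (4.90 to 52.0) and 2.85 in JEKO-1 (0.728 to 13). In Z138 its median was 0, its highest value 0.567, and 9 of 13 libraries were under the floor. CCND3, the D cyclin of germinal centre B cells, had medians of 60.0 in MINO-P (25.5 to 87.1), 59.0 in MINO-VR (28.7 to 83.1), 94.0 in JEKO-1 (5.02 to 125) and 34.9 in Z138 (25.9 to 55.9). Z138 was thus the lowest line for both genes, although for CCND3 its range overlapped those of the MINO lines. The 5.02 was JEKO-1 BTZ replicate 3; the next lowest JEKO-1 library had 56.3, just above the highest Z138 library.

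The kinase partners separated the lines more sharply. CDK4 had a median of 789 nuclear CPM in JEKO-1 (140 to 1432), against 195 in MINO-P (158 to 269), 236 in MINO-VR (147 to 291) and 261 in Z138 (137 to 353). The 140 came from JEKO-1 BTZ replicate 3; the next lowest JEKO-1 library had 453, above every library of the other lines. CDK6 was listed at 0 in all 15 JEKO-1 libraries and was under the floor of 3 reads (less 0.02 reads of tolerance) in 11 of 15 MINO-P and 9 of 13 MINO-VR libraries, with at most 10 and 11 reads in the others. In Z138 it was detected in all 13, with a median of 49.2 (24.6 to 104), at least 22.5-fold above the highest per-library floor of JEKO-1. Even in Z138, CDK6 stood at a median of 4.01 nuclear CPM per kilobase against 82.2 for CDK4.

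**Figure D1:**
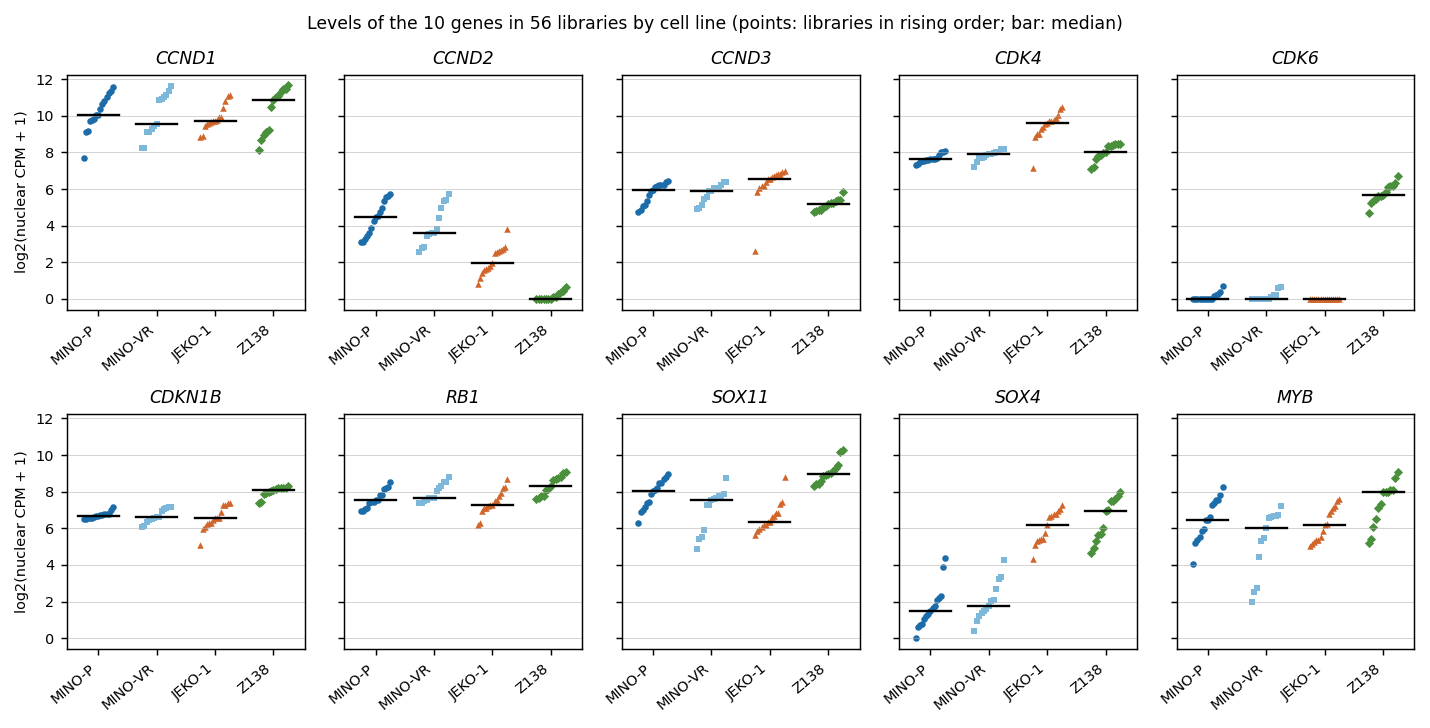
Levels of the 10 genes on a log2(nuclear CPM + 1) axis in the 56 libraries, by cell line; points are libraries in rising order and bars are medians. CDK6 is highest in Z138 (median 49.2 nuclear CPM), at or near the axis floor elsewhere (at most 0.626), CDK4 is highest in JEKO-1 (median 789), and SOX4 is low in MINO-P and MINO-VR (medians 1.85 and 2.32).

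CDKN1B, the gene of p27, stood at medians of 103 nuclear CPM in MINO-P (88.5 to 142), 96.3 in MINO-VR (65.9 to 144) and 93.2 in JEKO-1 (32.8 to 169), and at 268 in Z138 (168 to 311). Its Z138 range touched the others only at the JEKO-1 maximum. RB1 was more even, with medians of 186 in MINO-P (124 to 370), 203 in MINO-VR (168 to 444), 156 in JEKO-1 (72.0 to 419) and 311 in Z138 (190 to 534), all overlapping.

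SOX11 was detected in all 56 libraries. Its median was 490 nuclear CPM in Z138 (311 to 1252), 262 in MINO-P (77.0 to 506), 184 in MINO-VR (28.8 to 430) and 81.4 in JEKO-1 (49.3 to 447); the JEKO-1 maximum was again BTZ replicate 3, and the next highest JEKO-1 library had 171. SOX4 was split between lines, at medians of 120 in Z138 (24.4 to 253) and 71.1 in JEKO-1 (19.2 to 151), but 1.85 in MINO-P (0 to 19.9) and 2.32 in MINO-VR (0.334 to 18.0). MYB had medians of 249 in Z138 (36.1 to 529), 88.0 in MINO-P (15.8 to 307), 71.9 in JEKO-1 (31.8 to 197) and 63.8 in MINO-VR (2.97 to 147). Z138 was highest for all 3 transcription factor genes by median, with overlap for each.

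Lines were compared in an additive model of treatment, line and library name series over all 56 libraries, fitted with limma, with Benjamini-Hochberg adjustment over 17203 genes and a call at an adjusted p under 0.05. Name series are the HK and MCL prefixes of the library names. Differences are in log2(nuclear CPM + 1), given ± SE. Each line is a single cell line, so these are differences between the libraries of these lines.

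JEKO-1 differed from MINO-P in 4 of the 10 genes, where 39.1% of all genes were called. CCND2 (-2.14 ± 0.35, adjusted p = 1.92e-06) and SOX11 (-1.39 ± 0.31, adjusted p = 0.000311) were lower in JEKO-1 by limma. CDK4 (1.93 ± 0.18, adjusted p = 2.09e-12) and SOX4 (3.31 ± 0.35, adjusted p = 7.22e-11) were higher. Without JEKO-1 BTZ replicate 3, all 4 calls stood, and limma also called CCND3 higher (0.56, adjusted p = 0.00333) and RB1 lower (-0.46, adjusted p = 0.0279).

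Z138 differed from MINO-P in 6 of the 10 genes, where 39.3% of all genes were called. CDK6 (5.67 ± 0.15), SOX4 (3.82 ± 0.34), CDKN1B (1.33 ± 0.16) and SOX11 (0.92 ± 0.30) were higher in Z138, with limma adjusted p of 1.19e-33, 2.61e-13, 8.73e-10 and 0.0116. CCND2 (-4.34 ± 0.34) and CCND3 (-0.73 ± 0.27) were lower, with adjusted p of 2.90e-15 and 0.0267 by limma. Because CDK6 in MINO-P and CCND2 in Z138 lay mostly under the floor, their fitted sizes depend on the pseudocount. The SOX11 call was lost with name pairs averaged (0.80, limma adjusted p = 0.0554) and without the first 2 IBR libraries of 3 lines (0.81, limma adjusted p = 0.0551). The CCND3 call was lost without the series term (-0.51, adjusted p = 0.103) and without any of 3 libraries, MINO-P IBR_YM155, Z138 IBR_YM155 and Z138 IBR replicate 2 (limma adjusted p of 0.0595, 0.0595 and 0.0559).

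Against JEKO-1, Z138 differed in 7 of the 10 genes, where 54.5% of all genes were called. SOX11 (2.31 ± 0.27), CDKN1B (1.32 ± 0.14), RB1 (0.79 ± 0.17) and CDK6 were higher in Z138, and CDK4 (-1.62 ± 0.16), CCND3 (-1.20 ± 0.25) and CCND2 (-2.20 ± 0.31) lower, with limma adjusted p between 5.20e-36 and 0.000142. Without JEKO-1 BTZ replicate 3, all 7 were called again and MYB was called too (0.81, limma adjusted p = 0.0123).

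MINO-VR and MINO-P, which share their name, were compared in 25 libraries of treatments found in both. Of 9 members tested, 3 were called, where 23.5% of 14807 genes were called; CDK6 was too low to be tested. MYB was lower in MINO-VR (-0.85 ± 0.21, limma adjusted p = 0.00457) and remained so in all 38 alternatives. These include 28 fits that each leave out 1 library, and some are identical. Libraries of a treatment absent from the other line were already outside the fit. Where each line has 1 library of a treatment, leaving out either gave the same fit. The lower SOX11 (-0.63 ± 0.21, adjusted p = 0.0330) and the slightly higher RB1 (0.32 ± 0.11, adjusted p = 0.0321) lost their limma calls in 13 and 12 of the 38. Only 1 member was called, MYB, when a single library was left out that was either line's CLF, BTZ or BTZ_CLF library or the MINO-VR S63845 library. For CCND1 the difference was -0.06, with a 95% interval of -0.59 to 0.47, and both untreated libraries stood close together at 2110 (MINO-P) and 2104 (MINO-VR) nuclear CPM.

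BTZ was compared with CON over all 4 lines. CCND1, CDK4 and MYB fell, 3 of the 10, where limma called 18.6% of all genes and 13.8% as lower; no member rose. Untreated CCND1 was 2110 nuclear CPM in MINO-P, 2104 in MINO-VR, 2137 in JEKO-1, and 2820 and 3252 in Z138. Under BTZ it was 1304 in MINO-P, 1833 in MINO-VR, 457, 481 and 960 in JEKO-1, and 558 in Z138. Every BTZ library was below every untreated library, and the gap was widest in Z138 and JEKO-1 and narrow in MINO-VR. The fitted change of CCND1 was -1.56 ± 0.44, 2.95-fold lower (limma adjusted p = 0.00971).

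JEKO-1 BTZ replicates 1 and 2 held 67.6% and 67.5% mitochondrial reads. When the 6 JEKO-1 libraries above 50% were left out, CCND1 was -1.21 with a limma adjusted p of 0.0772, so that call was lost; the part of RNA quality in it was not tested. In bulk RNA, fewer cells with a transcript and less transcript per cell cannot be told apart.

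MYB had the largest fitted fall of the 3 called members under BTZ. It was 156 nuclear CPM untreated and 60.5 under BTZ in MINO-P, 94.5 and 20.4 in MINO-VR, and 255 and 529 untreated against 36.1 in Z138. In JEKO-1 it went from 148 to 37.7 and 31.8 in replicates 1 and 2, but stood at 197 in replicate 3. The treated libraries lay below the untreated library of their line except for that one. The limma change was -1.93 ± 0.47 (3.80-fold lower, adjusted p = 0.00275), and -2.29 (adjusted p = 0.000128) without JEKO-1 BTZ replicate 3.

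CDK4 was 269 nuclear CPM untreated and 184 under BTZ in MINO-P, and 252 and 232 in MINO-VR. In Z138 it was 319 and 351 untreated and 261 under BTZ, while JEKO-1 went from 1333 to 453, 512 and 140. All 4 lines were lower, and JEKO-1 moved by far the most. The limma change was -1.06 ± 0.24 (2.09-fold lower, adjusted p = 0.00144), and -0.74 (adjusted p = 0.00108) without JEKO-1 BTZ replicate 3.

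The remaining members were not called under BTZ. RB1 was lower in all 4 lines by group mean (-0.53, adjusted p = 0.170), and without JEKO-1 BTZ replicate 3 it was called (-0.75, limma adjusted p = 0.0202). SOX11 had lower values under BTZ in the MINO lines, 174 against 288 nuclear CPM in MINO-P and 41.6 against 153 in MINO-VR, and no lower ones in Z138, 520 against 311 and 490; in JEKO-1 it was 49.3 and 71.9 in replicates 1 and 2 and 447 in replicate 3, against 81.4. Over all lines SOX11 was -0.14, with an interval of -0.98 to 0.70, and -0.57 (limma adjusted p = 0.271) without JEKO-1 BTZ replicate 3. CDKN1B (-0.31, interval -0.74 to 0.13), CCND3 (-0.69, -1.46 to 0.07) and SOX4 (-0.81, -1.76 to 0.14) likewise did not pass, nor did CCND2 (-0.39, -1.33 to 0.55) and CDK6 (-0.01, -0.43 to 0.41). The CCND3 value rests on JEKO-1 BTZ replicate 3 and was -0.12 without it.

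**Figure D2:**
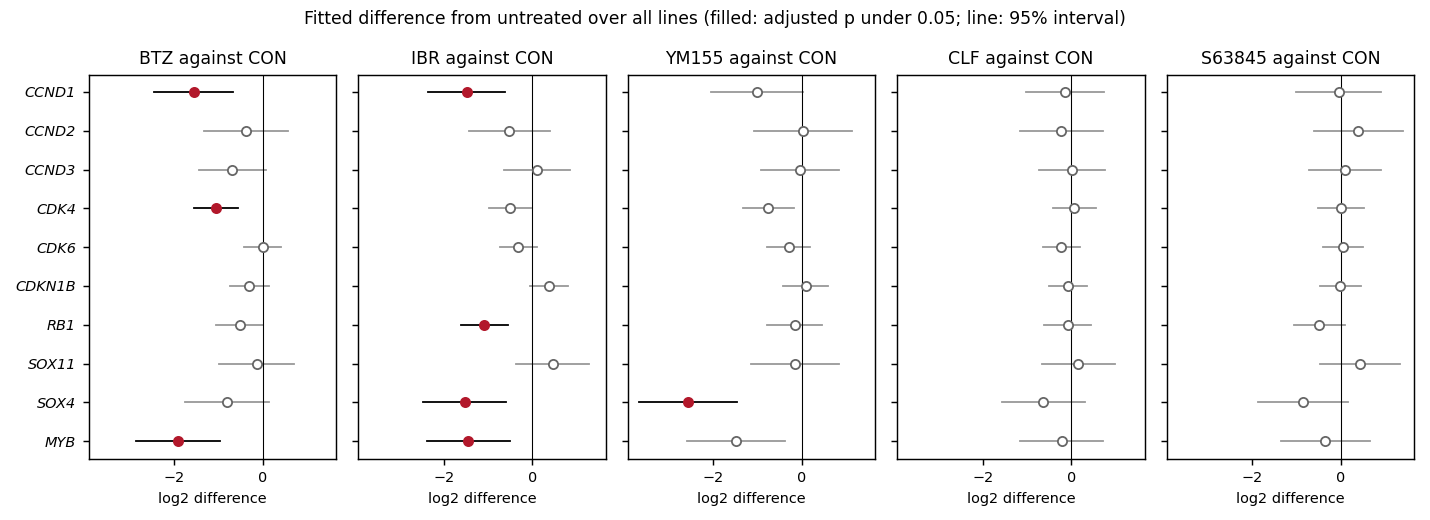
Fitted log2 differences of the 10 genes from untreated for the 5 single agents over all lines, with 95% intervals; filled points have an adjusted p under 0.05. CCND1, CDK4 and MYB are filled for BTZ, CCND1, RB1, SOX4 and MYB for IBR, SOX4 for YM155, and none for CLF or S63845.

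Within single lines, fitted with 1 mean per group, fewer members passed. JEKO-1 CON, Z138 BTZ and each CON and BTZ arm of the MINO lines are 1 library, assumed to vary like the other groups, whose spread comes largely from pairs of similar names and may be technical. In JEKO-1, 1 of 10 members was called under BTZ (background 4.26%): CDK4, at -2.06 ± 0.43 (limma adjusted p = 0.00809) and -1.47 (adjusted p = 0.000170) without replicate 3. The CDK4 call was lost with name pairs averaged (limma adjusted p = 0.0529); replicates 1 and 2 are such a pair, alone in the arm without replicate 3, and may not be separate cultures. Without replicate 1 or 2, CCND3 was called as well (limma adjusted p = 0.0234 and 0.0374), so that 2 members passed. Both of those fits keep replicate 3. Without replicate 3, the JEKO-1 CCND3 change was -0.94 and was not called. In Z138, 1 of 10 was called (background 4.89%): MYB, at -3.31 ± 0.91 (limma adjusted p = 0.0350). That call was lost without either Z138 CON replicate, with limma adjusted p of 0.0527 and 0.212. In MINO-P and MINO-VR together limma called 0 of 10 members among 459 genes (2.67%), and 2301 of 17203 genes had an unadjusted p under 0.05. The closest member there was CCND2, which stood at 51.4 and 41.8 nuclear CPM untreated and at 11.1 and 11.3 under BTZ (-1.96 ± 0.60, limma adjusted p = 0.0860).

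Whether the BTZ change differed between the MINO lines and JEKO-1 was tested directly. No member was called by limma (0 of 10; 16 genes or 0.093% over all, and 1344 at an unadjusted p under 0.05). CCND2 came nearest, with a difference of -2.97 ± 0.91 (limma adjusted p = 0.295): in JEKO-1 it was 2.10 untreated and 6, 5.13 and 4.65 under BTZ. CDK4 differed by 1.72 ± 0.56 (adjusted p = 0.369), and by 1.13 (limma adjusted p = 0.0589) without JEKO-1 BTZ replicate 3.

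IBR, the most replicated agent, was compared with CON in the same way. CCND1, RB1, SOX4 and MYB fell, 4 of the 10, where limma called 10.8% of all genes and 6.39% as lower; no member rose. The comparison shares its untreated libraries with BTZ. In MINO-P and MINO-VR the untreated libraries carry HK names and all IBR libraries MCL names. Within these lines treatment and name series therefore cannot be told apart. JEKO-1 and Z138 hold no HK library. The fit separates the series term only by assuming that treatment changes are the same in all lines. Its IBR changes therefore lean on JEKO-1 and Z138.

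CCND1 under IBR was 842, 874 and 2627 nuclear CPM in MINO-P, 559, 560 and 1933 in MINO-VR, 838, 855 and 966 in JEKO-1, and 414 and 498 in Z138. All but the third MINO-P library lay below the lowest untreated value of 2104. The change was -1.49 ± 0.43 (2.80-fold lower, limma adjusted p = 0.0204). The call was lost without Z138 CON replicate 1 (adjusted p = 0.0629) or 2 (adjusted p = 0.0872). The number of called members fell to 1 without Z138 CON replicate 2 and to 2 without MINO-P CON or Z138 IBR replicate 1, and was 5 without JEKO-1 BTZ replicate 3, when CDK4 was called too (-0.57, limma adjusted p = 0.0112).

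RB1, the substrate of the cyclin D kinases, was 307 nuclear CPM untreated and 171, 163 and 299 under IBR in MINO-P, and 371 against 202, 199 and 369 in MINO-VR. It was 298 against 77.7, 72.0 and 136 in JEKO-1, and 534 and 276 against 213 and 215 in Z138. All 11 IBR libraries were below the untreated values of their line, though the third MINO libraries only just. The change was -1.09 ± 0.26 (2.12-fold lower, limma adjusted p = 0.00508), and it stayed called when any 1 library was left out, but not with values as deposited (adjusted p = 0.0613) or in JEKO-1 and Z138 only (limma adjusted p = 0.0943).

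SOX4 was 123 nuclear CPM untreated against 38.7, 41.8 and 52.6 under IBR in JEKO-1, and 182 and 253 against 24.4 and 48.1 in Z138. In MINO-P it was 3.25 untreated and 3.92, 3.61 and 19.9 under IBR, and in MINO-VR 3.20 and 3.02, 9.17 and 18.0. JEKO-1 and Z138 thus had lower SOX4 values and the MINO lines similar or higher ones. The fitted -1.53 ± 0.46 (limma adjusted p = 0.0250) became -0.55 (adjusted p = 0.531) without the series term. Its call was lost without MINO-P CON, Z138 CON replicate 2 or Z138 IBR replicate 1 (limma adjusted p of 0.0558, 0.0762 and 0.0662). MYB was 148 against 39.8, 34.9 and 124 in JEKO-1, 255 and 529 against 42.3 and 157 in Z138, 156 against 96.5, 85.2 and 228 in MINO-P, and 94.5 against 63.8, 100 and 147 in MINO-VR. Its change was -1.45 ± 0.46 (limma adjusted p = 0.0349), a call lost in 11 of 68 alternatives. Among these were leaving out MINO-P CON, MINO-VR CON, Z138 CON replicate 2, Z138 IBR replicate 1, or JEKO-1 IBR replicate 1 or 2, with limma adjusted p of 0.0532 to 0.140.

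The 3 IBR libraries of a MINO line were not alike. Replicates 1 and 2 have names that differ by a final letter and nearly equal CCND1, with correlations over all genes of 0.980 (MINO-P) and 0.984 (MINO-VR), although in MINO-VR they differed by 1.34 in log2 for SOX4 and 0.64 for MYB; replicate 3 stood well above both in CCND1, SOX4 and MYB. With the first 2 IBR libraries of MINO-P, MINO-VR and JEKO-1 left out, none of the 4 members was called: CCND1 was -1.29 (adjusted p = 0.141), RB1 -0.70 (adjusted p = 0.151), SOX4 -1.27 (adjusted p = 0.181) and MYB -0.995 (adjusted p = 0.304) by limma. With the third left out instead, CCND1 was -1.77 (adjusted p = 0.00378) and RB1 -1.25 (limma adjusted p = 0.000870).

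SOX11 and CDKN1B were not among the called members. SOX11 was 479 and 1252 nuclear CPM in IBR-treated Z138 against 311 and 490 untreated, and 113, 101 and 162 in JEKO-1 against 81.4, giving a change of 0.46 with an interval of -0.37 to 1.28. CDKN1B was 153, 153 and 93.4 in JEKO-1 against 88.0 untreated and 169 and 264 in Z138 against 297 and 241, lower there by group mean (0.37 over all lines, interval -0.06 to 0.80). CCND2 (-0.52), CCND3 (0.10), CDK4 (-0.51) and CDK6 (-0.32) were not called either. Of SOX11 and CDKN1B, neither was called by limma (adjusted p = 0.555 and 0.291). By group mean, SOX11 was above untreated in all 4 lines, by 0.12 in MINO-P and 0.80 in MINO-VR. CDKN1B was above untreated in 3 of 4, by 0.44 in MINO-P and 0.51 in MINO-VR. In both MINO lines the name series differs as well.

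Z138 IBR replicates 1 and 2 were unlike, with a correlation over all genes of 0.939. They lay 1.87 apart in log2 for MYB, 1.38 for SOX11 and 0.95 for SOX4, but 0.27 for CCND1. Replicate 1 was closest to Z138 BTZ replicate 1 (0.954), and replicate 2 to Z138 IBR_CLF replicate 2 (0.994). Within Z138, 1 of 10 members was called under IBR (background 1.68%): CCND1, at -2.73 ± 0.67, 6.66-fold lower (limma adjusted p = 0.0351). It was lost when any 1 of the 4 Z138 libraries was left out, with adjusted p of 0.0736 to 0.269. Within JEKO-1, limma called 0 of 10 members among 114 genes (0.663%; 1737 at an unadjusted p under 0.05), and RB1 stood at -1.69 ± 0.52 (adjusted p = 0.161). The test of a different IBR change in Z138 and JEKO-1 called 0 members and 4 genes (0.0233%; 869 at an unadjusted p under 0.05); for CCND1 the difference was -1.46 with an interval of -3.58 to 0.65.

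**Figure D3:**
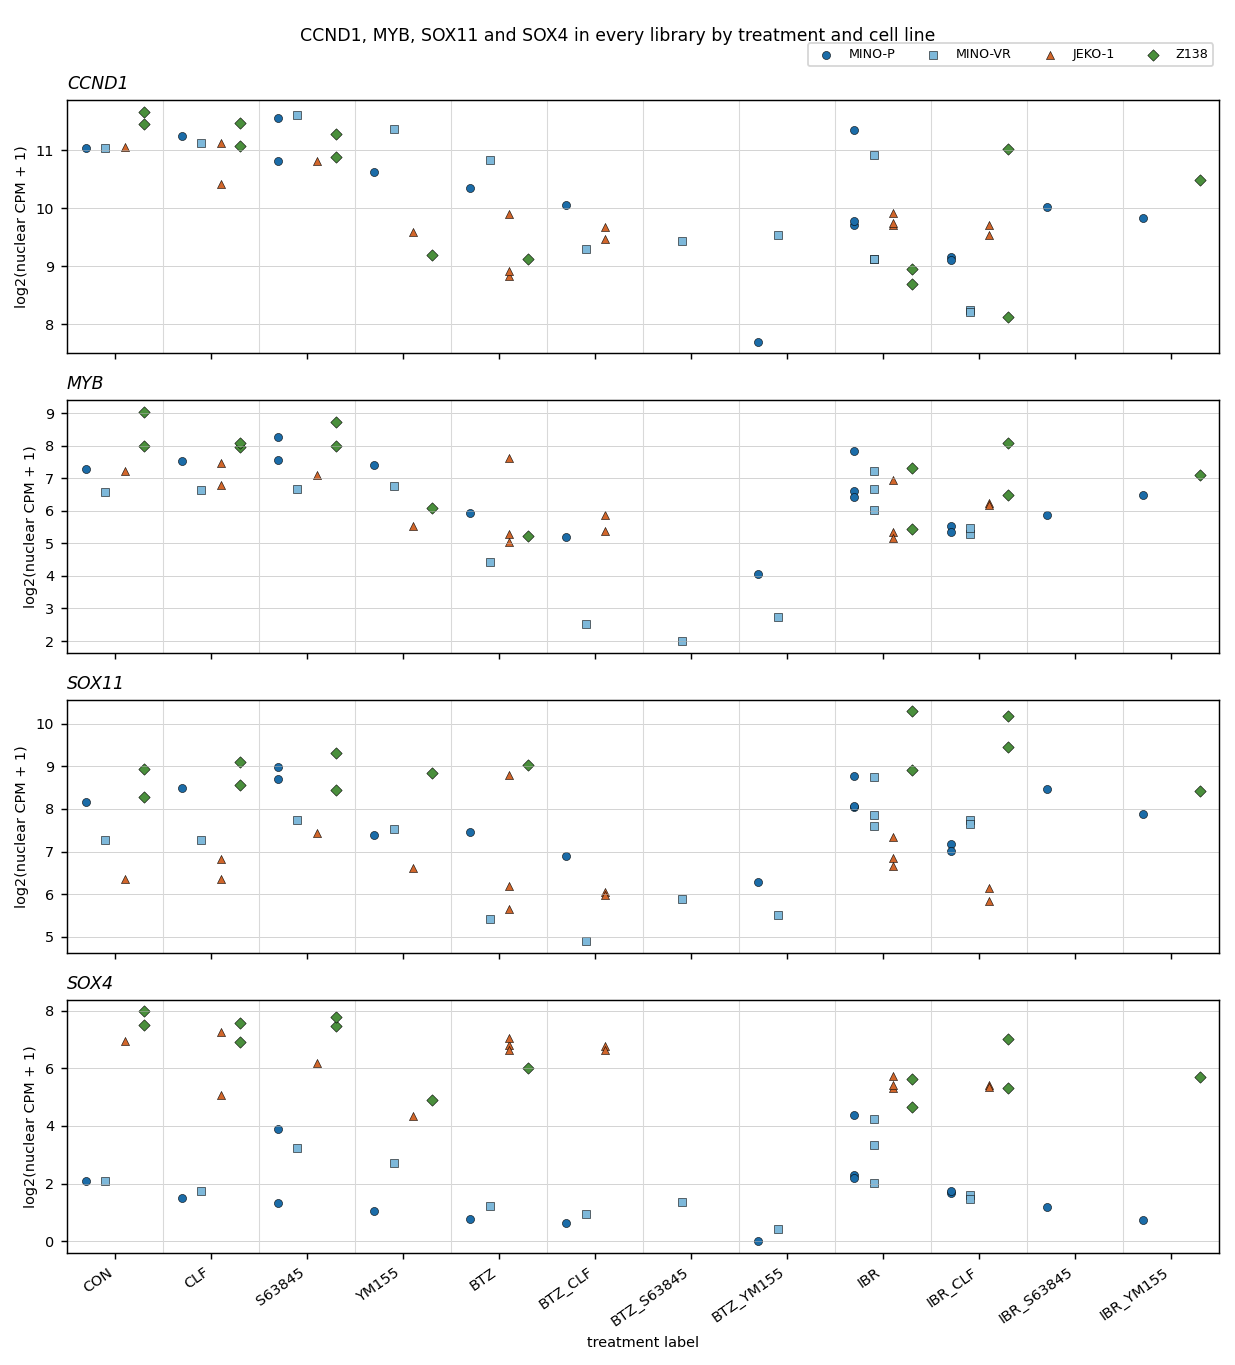
CCND1, MYB, SOX11 and SOX4 in every library, log2(nuclear CPM + 1), by treatment label; colour and shape give the cell line. MYB is lowest in MINO-VR libraries that received BTZ with a second agent (2.97 to 5.67 nuclear CPM), and the third IBR libraries of MINO-P and MINO-VR sit above the other 2 for CCND1.

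YM155 alone was tested in 1 library of each line. In the MINO lines that library carries an MCL name and the untreated one an HK name. Agent and name series cannot be told apart there. SOX4 was called, 1 of 10 members, where limma called 1.15% of all genes and 0.407% as lower. It stood at 19.2 nuclear CPM in JEKO-1 against 123 untreated, and at 29 in Z138 against 182 and 253. In the MINO lines, where SOX4 is low, it was 1.08 against 3.25 in MINO-P and 5.55 against 3.20 in MINO-VR. The fitted -2.57 ± 0.55 (5.94-fold lower, limma adjusted p = 0.0125) was lower in 3 of 4 lines. The call was lost without the Z138 YM155 library (-2.45, adjusted p = 0.101) and without the series term (-1.62, limma adjusted p = 0.203).

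CCND1 and MYB under YM155 had lower values in JEKO-1 and Z138 than in the MINO lines. CCND1 was 775 nuclear CPM in JEKO-1 and 588 in Z138, but 1572 in MINO-P and 2650 in MINO-VR (-1.01, interval -2.05 to 0.03, adjusted p = 0.362). MYB was 45.5 and 67.3 in JEKO-1 and Z138, and 167 and 106 in MINO-P and MINO-VR (-1.49, limma adjusted p = 0.175). CDK4 was lower in all 4 lines, at 137 in Z138, 758 in JEKO-1, 183 in MINO-P and 147 in MINO-VR (-0.76, adjusted p = 0.185), and was called without JEKO-1 BTZ replicate 3 (-0.82, limma adjusted p = 0.0115). CCND2 (0.03), CCND3 (-0.05), CDK6 (-0.30), CDKN1B (0.08), RB1 (-0.17) and SOX11 (-0.16) were not called. Whether lines differed in their YM155 values was not tested, as each holds 1 library. In the MINO lines the name series differs from that of the untreated library as well.

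No member passed the test under CLF or S63845 alone, within wide intervals. Limma called 0 of 10 members for each, and 0 of 17203 genes (0%), while 62 (CLF) and 428 (S63845) had an unadjusted p under 0.05. Under CLF, CCND1 was 2426 nuclear CPM in MINO-P, 2234 in MINO-VR, 2239 and 1375 in JEKO-1, and 2849 and 2161 in Z138 (-0.15, interval -1.03 to 0.73). Under S63845 it was 1812 and 3028 in MINO-P, 3116 in MINO-VR, 1804 in JEKO-1, and 2488 and 1890 in Z138 (-0.05, interval -1.01 to 0.90). Taken over all lines, these values straddled the untreated ones. By group mean, CCND1 was above untreated in both MINO lines and below it in JEKO-1 and Z138, under either agent. In the MINO lines the S63845 libraries carry MCL names and the untreated ones HK names. S63845 and name series cannot be told apart there, for any gene. SOX11 was above untreated under S63845 in all 4 lines by group mean (0.43, interval -0.47 to 1.33, limma adjusted p = 1).

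Combinations were compared with their single agents in the same additive model. BTZ_YM155, available in MINO-P and MINO-VR only, differed from YM155 in 1 of 10 members (background 0.552%): MYB, at 15.8 against 167 nuclear CPM in MINO-P and 5.67 against 106 in MINO-VR (-3 ± 0.68, 8-fold lower, limma adjusted p = 0.0241). The call needed all 4 libraries, with adjusted p of 0.0897 to 0.249 without any 1 of them. Against BTZ, 1 of 10 members was called (background 0.477%): SOX4, with a fitted -3.13 ± 0.70 (limma adjusted p = 0.0284). Its values were 0 against 0.689 in MINO-P and 0.334 against 1.31 in MINO-VR, within-line differences of only -0.76 and -0.79. Here the BTZ libraries carry HK names and the combinations MCL names; without the series term the change was -1.80 (adjusted p = 0.416). It was not called without either combination library (limma adjusted p = 0.514 without MINO-P and 0.102 without MINO-VR), and 2 members were called without Z138 BTZ or without Z138 IBR_CLF replicate 1.

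CCND1 reached its lowest MINO-P level under BTZ_YM155, at 207 nuclear CPM, against 1304 with BTZ and 1572 with YM155 alone, and was 743 against 1833 and 2650 in MINO-VR. It was lower than with either single agent in both lines, but was not called. MYB in MINO-VR was 2.97 under BTZ_S63845, 4.78 under BTZ_CLF and 5.67 under BTZ_YM155, against 20.4 with BTZ and 94.5 untreated. Each of these labels is 1 MINO-VR library. In the MINO lines, BTZ, BTZ_CLF and untreated libraries carry HK names, and BTZ_YM155 and BTZ_S63845 libraries MCL names.

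No member passed the test for CLF added to another agent. BTZ_CLF against BTZ called 0 of 10 members and 12 genes (0.0698%; 1284 at an unadjusted p under 0.05), and IBR_CLF against IBR called 0 of 10 and 0 of 17203 genes (0%; 1679 unadjusted) by limma. CCND1 under IBR_CLF was 572 and 552 nuclear CPM in MINO-P, 301 and 296 in MINO-VR, 841 and 745 in JEKO-1, and 2075 and 277 in Z138. The 2 Z138 libraries of that group differed by 2.90 in log2 for CCND1, more than any other pair of similar names did for that gene. They were also unlike in SOX4 (129 and 38.9) and MYB (271 and 88.4). Over all genes their correlation with each other was 0.951, against 0.939 for the Z138 IBR pair. IBR_CLF replicate 1 was closest to Z138 S63845 replicate 1 (0.987), and IBR_CLF replicate 2 to Z138 IBR replicate 2 (0.994). Both were counted as IBR_CLF here, and the reason for the mismatch was not tested. IBR_YM155 against IBR called 0 of 10 members and 0 genes (0%; 910 unadjusted); CCND1 was 912 in MINO-P and 1429 in Z138. Within single lines, IBR_CLF against IBR called 0 of 10 members in MINO-P (0.0174%, 888 unadjusted) and in JEKO-1 (6.36%, 3365 unadjusted), and CLF or S63845 against CON in Z138 called 0 (0% each, 112 and 179 unadjusted) by limma.

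The rest of the G1 pathway was read in 6 lists of 36 genes in all, each described by counts and medians only. Under BTZ, 19 of 36 were lower and 1 higher, where 18.6% of all genes were called and 13.8% were lower, with a median of -0.92 against -0.17 over all genes. The cyclin E/A and CDK2 step had 5 of 7 lower (median -1.76), among them CCNA2, a cyclin of S phase (-2.78 ± 0.52, limma adjusted p = 0.000124). E2F, DP and pocket protein genes had 7 of 12 lower and 1 higher: E2F8, a repressor that peaks late in S phase, was -3.35 ± 0.69 (adjusted p = 0.000426), and E2F6 0.94 ± 0.25 (limma adjusted p = 0.00622). MYBL2, a MYB relative needed for mitotic gene expression, was -2.86 ± 0.42 (limma adjusted p = 4.47e-06). CDK inhibitor genes had 3 of 6 lower, cyclin D turnover genes 1 of 4, SOXC and MYB relatives 2 of 3, and genes tied to SOX11 1 of 4.

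Under IBR, 18 of 36 were lower and 0 higher, where 10.8% of all genes were called and 6.39% were lower (median -0.84, against -0.00 over all genes). The cyclin E/A and CDK2 step had 6 of 7 lower, with CCNE2, a cyclin E gene, at -2.14 ± 0.51 (limma adjusted p = 0.00420). E2F, DP and pocket proteins had 8 of 12 lower, with E2F8 at -2.93 ± 0.68 (adjusted p = 0.00350). Of the genes tied to SOX11 in mantle cell lymphoma, 1 of 4 passed, the B cell factor gene PAX5, at -2.77 ± 0.50 (limma adjusted p = 0.000304). CDK inhibitors had 0 of 6. These IBR counts are from the fit over all lines, and in the MINO lines IBR and name series cannot be told apart. Within Z138, limma called 4 of the 36, all lower (median -0.91), where 1.68% of all genes were called. In JEKO-1 the median of the 36 was -0.85. Under YM155, 2 of 36 passed, where 1.15% of all genes did, both lower: SOX12, the third SOXC gene (-1.85 ± 0.33, adjusted p = 0.00433), and CDKN2C, which encodes the CDK4 and CDK6 inhibitor p18 (-1.67 ± 0.34, limma adjusted p = 0.0107).

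Between lines, CDKN2A and CDKN2B, which encode inhibitors of CDK4 and CDK6, were at or near 0 in Z138. CDKN2A, the gene of p16, had a median of 197 nuclear CPM in MINO-P (89.0 to 264), 183 in MINO-VR (91.0 to 283) and 122 in JEKO-1 (36.7 to 202), but was at 0 in 12 of 13 Z138 libraries, with 0.404 in the other. The neighbouring CDKN2B was at 0 in all 13, so that its JEKO-1 median of 7.52 was at least 31.0-fold higher than the highest floor of Z138. Z138, the line with the highest medians of CDK6 and CDKN1B, thus had CDKN2A and CDKN2B at or near 0. The other genes of that inhibitor family, CDKN2C (medians of 41.2 to 83.4) and CDKN2D (3.58 to 13.9), had ranges that overlapped between lines. Their medians were 41.2 and 3.58 in Z138 against 83.4 and 13.9 in JEKO-1. Between these lines limma called all 6 CDK inhibitor genes, 2 higher and 4 lower in Z138, where 54.5% of all genes were called. CDKN1C, another inhibitor of the p27 family, was higher in Z138 than in MINO-P (1.83 ± 0.29, limma adjusted p = 1.13e-06). In JEKO-1, where CDK4 was highest, CCNA2 (2.78 ± 0.38), CDC25A, a phosphatase that activates CDK2 (2.33 ± 0.24), and CKS1B, a CDK subunit (1.83 ± 0.29), were higher than in MINO-P, with limma adjusted p of 6.55e-08, 6.16e-11 and 1.38e-06. Of the 36 genes, 10 were higher and 5 lower in JEKO-1 than in MINO-P, close to the 39.1% called over all genes. In Z138, 14 were higher and 8 lower than in MINO-P (39.3% over all genes), and 7 higher and 15 lower than in JEKO-1 (54.5%).

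Of the 36 list genes, 8 were called between MINO-VR and MINO-P, 2 higher and 6 lower in MINO-VR, a share close to the 23.5% of all genes called there. GSK3B, a kinase that marks cyclin D1 for degradation, was lower (-0.87 ± 0.15, limma adjusted p = 0.000213), as were CDKN2B (-0.81 ± 0.20) and E2F7 (-0.80 ± 0.22). E2F4 (0.36 ± 0.08) and RBL2, which encodes the pocket protein p130 (0.44 ± 0.15), were higher, with adjusted p of 0.00285 and 0.0438 by limma.

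How the members varied together was described over the 37 groups, after the mean of a line's groups was taken from each group mean of log2(nuclear CPM + 1). MYB followed CCND1 (Pearson r = 0.74), CCND2 (0.73), SOX4 (0.70) and SOX11 (0.69), and RB1 followed CCND1 (0.65). Groups of a line share the mean that was taken out, so these are descriptions with no test. In the MINO lines the groups are split between the HK and MCL name series, and that difference was not removed. JEKO-1 BTZ replicate 3 was kept in. Among 9783 genes with a mean of at least 10 nuclear CPM, those most like CCND1 were PITPNM2 (0.894), VPS9D1-AS1 (0.888) and NRM (0.882). Those most like SOX11 were FOXN3 (0.803), GDF11 (0.792) and SMAD3 (0.787), and those most like MYB were RASGRP2 (0.921), P2RY8 (0.904) and AFF3 (0.900), all over the same 37 groups.

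**Figure D4:**
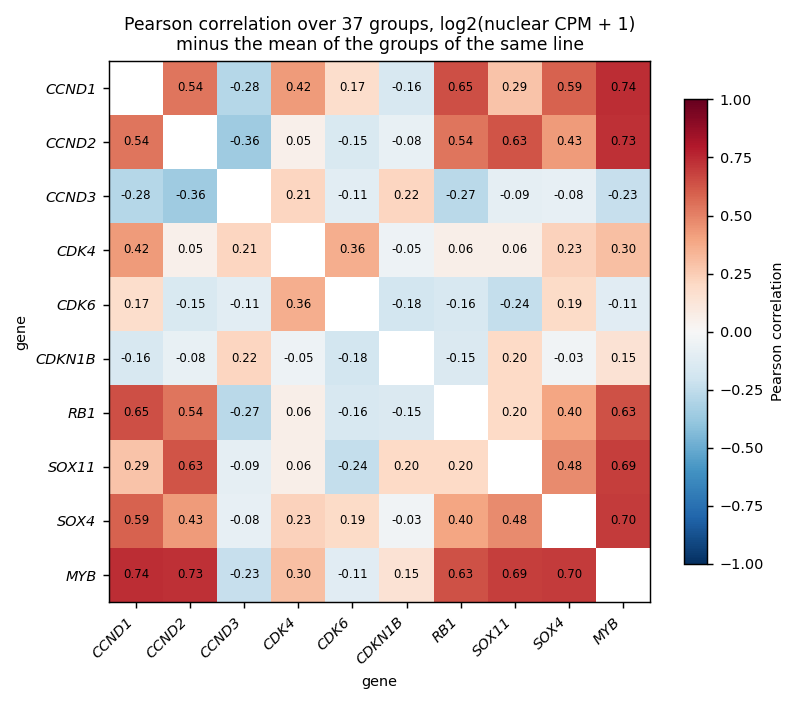
Pearson correlations between the 10 genes over 37 groups of line and treatment, after the mean of each line's groups was taken out; colour runs from -1 to 1. The row of MYB holds high values with CCND1 (0.74), CCND2 (0.73), SOX4 (0.70) and SOX11 (0.69).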

How the data were processed

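RNA-seq of 4 cell line cultures was analysed from the deposited gene table. Per the labels' protocols it was poly-A RNA sequenced in paired ends. The authors deposited log2 values: when the log2 was undone and 1 taken off, each library summed to 999984 to 1000009, so the deposited values are log2(CPM + 1) on library-scaled reads. hg38 and Partek are named in the submitters' processing notes; aligner, counter, annotation, strand use and filters are not given in the sources used here. Without strand, reads of antisense or overlapping genes cannot be told apart.

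Depth per library was recovered from the steps of low CPM values; 75.8% to 88.6% of low values were whole reads within 0.02 reads, so no count model was fitted. An entry without a name (at most 0.000773% of a library) was left out. CPM was rescaled to the same total after 15 mitochondrial genes were removed. Genes with at least 1 nuclear CPM in 2 libraries entered limma 3.58.1 (R 4.3.3, intensity trend) on log2(nuclear CPM + 1), with pseudocount 1, all genes adjusted by Benjamini-Hochberg, and a call at an adjusted p under 0.05. There were 25 comparisons, in an additive model (56 libraries), a MINO model (25 libraries) and a model of 37 group means. The code was tested on simulated data. Fold changes on this scale understate the change of low genes.

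Groups come from the labels. Replicate numbers follow the order of the series and were not used as pairs. In Z138, CON replicate 1 was closest to CLF replicate 1 (0.991) and CON replicate 2 to CLF replicate 2 (0.984). The Z138 CON replicates correlated at 0.976 with each other. A block of the name suffix was not fitted in the model of group means. The members and gene lists were chosen with earlier results of these data known. The rule was to name all 10 members in every comparison; a member with no value in a comparison's text was tested there and not called, or was too low to test; from the lists, at most 3 called genes in each direction, those with the largest changes; and for CCND1, SOX11 and MYB the 3 most correlated genes. Per-kilobase levels use merged exons of GENCODE release 29. The B cell marker sum is not reported here. T cell, myeloid, epithelial and fibroblast markers summed to line medians of at most 5.71, 1.73, 9.59 and 45.9 nuclear CPM, the last COL1A1 in Z138. Alternatives were other scalings, pseudocount 0.25, no filter, name pairs averaged, array weights, a block of the name suffix, no series term, fewer lines, and each library left out. Leaving out libraries above 50% mitochondrial reads, or sets of IBR libraries, was added after the data were seen.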

Additional observations from a re-analysis of the deposited data

Results flagged for a closer look

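CCND3 under BTZ moved one way in Z138 and the other way in JEKO-1. In Z138 it was 55.9 nuclear CPM under BTZ against 28.3 and 41.0 untreated, a difference of 0.70 in log2 from the untreated mean. In JEKO-1 it was 69.4, 56.3 and 5.02 against 121, differences of -0.79, -1.09 and -4.34, the last from replicate 3, the library that stood apart. The mean differences of the lines lay 2.77 apart, and 1.64 apart without JEKO-1 BTZ replicate 3. The difference between Z138 and JEKO-1 was not tested.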

How the results depend on the processing

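Over 33 member results called in the main setting, 18 were called under all of their alternatives and 0 changed sign. Genes called over all moved with the setting, so no member count below is read as a result about the members. They ranged from 104 to 6053 for BTZ in JEKO-1 and from 140 to 3047 for BTZ in the MINO lines. The range was 4 to 2656 for IBR in JEKO-1 and 0 to 4849 for the BTZ change of MINO minus JEKO-1. The number of members called moved with the setting as follows, and the cause was not tested. With values as deposited it was 1 for IBR against CON, 3 for BTZ in JEKO-1, 1 for BTZ in the MINO lines, 0 for BTZ and 0 for IBR in Z138, 1 for IBR_CLF against IBR in JEKO-1 and 2 for the BTZ change of MINO minus JEKO-1. With size factors it was 2 for BTZ_YM155 against BTZ and 0 for BTZ in Z138, and with no filter 2 for IBR in Z138. With name pairs averaged, which leaves fewer libraries, it was 2 for IBR against CON, and 0 for BTZ_YM155 against BTZ, BTZ in JEKO-1, BTZ in Z138 and IBR in Z138. With array weights it was 6 for BTZ against CON (SOX11 at -0.89, limma adjusted p = 0.0479, among them), 2 for YM155 against CON, 1 for IBR_CLF against IBR, 0 for BTZ_YM155 against BTZ and 4 against YM155, 7 for JEKO-1 against MINO-P, 4 and 4 for BTZ and IBR in JEKO-1, 3 for BTZ in the MINO lines, 3 for BTZ in Z138, 2 and 1 for IBR_CLF against IBR in MINO-P and JEKO-1, and 2 for the BTZ change of MINO minus JEKO-1. Without the series term it was 0 for YM155 against CON and for BTZ_YM155 against BTZ or YM155; in JEKO-1 and Z138 only, 2 for IBR and 0 for YM155. Without libraries above 50% mitochondrial reads it was 2 for BTZ_YM155 against BTZ, 3 for BTZ and 2 for IBR in JEKO-1, 1 for BTZ in the MINO lines and 4 for the BTZ change of MINO minus JEKO-1. Without the third IBR libraries it was 2 for BTZ in Z138; without the first 2, 0 for IBR against CON, BTZ_YM155 against BTZ and BTZ in Z138.

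Leaving out 1 library gave 1 to 5 members for IBR against CON, 0 to 2 for YM155 against CON, 0 to 2 for BTZ_YM155 against BTZ, 0 to 1 against YM155, 1 to 4 for MINO-VR against MINO-P, 1 to 2 for BTZ in JEKO-1, 0 for BTZ in Z138 and 0 to 1 for IBR in Z138. A replicate block of the name suffix moved no such count by over 1.5 times: BTZ against CON kept 3, IBR against CON 4 and Z138 against JEKO-1 had 8. Genes called over all ranged from 1214 to 5235 for BTZ and from 191 to 5055 for IBR across settings, against 3204 and 1851. Depth limits CDK6, under 3 reads (within 0.02 reads) in 11 of 15 MINO-P, 9 of 13 MINO-VR and 15 of 15 JEKO-1 libraries, and CCND2, under 3 reads in 9 of 13 Z138 libraries.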
